A study of Homo sapiens with 6 samples.

Results

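Genes of the urea cycle and of glutamine and glutamate metabolism were followed in HEK293T cells with and without valproic acid (VPA), an anticonvulsant and an inhibitor of histone deacetylases. The 9 members were chosen by symbol among the 47470 genes listed in the count tables, because raised blood ammonia is a known side effect of VPA in patients: CPS1, NAGS, ASS1, ASL and ARG2 (enzymes of the urea cycle), SLC25A13 and SLC25A15 (carriers of the inner mitochondrial membrane), and GLUL and GLUD1 (enzymes of glutamine and glutamate). HEK293T is an established line derived from human embryonic kidney and expressing the large T antigen of SV40. RNA was sequenced from 3 libraries of cells kept in 1 mM VPA for 1 day and from 3 libraries of untreated cells of the same line, for which no vehicle is named, and all cells were grown in DMEM with serum. The genotype field of the labels reads WT for the untreated libraries and repeats the treatment for the others, so that no allele separates the groups. Nothing in the labels says that the libraries came from separate cultures, and p-values then measure the spread between these libraries, which may be technical.

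The urea cycle turns ammonia into urea and runs as a whole in the liver. In the mitochondrion, carbamoyl-phosphate synthetase (CPS1) joins ammonia and bicarbonate, and works only in the presence of N-acetylglutamate, the product of NAGS. Citrulline is formed from this product by ornithine transcarbamylase and leaves for the cytosol in exchange for ornithine through SLC25A15. There ASS1 joins citrulline to aspartate, which SLC25A13 exports from the mitochondrion, ASL splits the product into arginine and fumarate, and arginase releases urea. Outside the liver only parts of the cycle are used, ASS1 and ASL for making arginine and ARG2, the mitochondrial arginase, for making ornithine. Glutamine synthetase (GLUL) binds ammonia to glutamate, and glutamate dehydrogenase (GLUD1) can release it again.

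All 9 genes had enough reads to be among the 15298 genes of the test, edgeR's quasi-likelihood test with TMM scaling. The 4 enzymes ASS1, ARG2, ASL and CPS1 were higher in VPA-treated cells at an adjusted p under 0.05, and NAGS did not pass the test. SLC25A13, SLC25A15, GLUL and GLUD1 were lower, although all but GLUL changed sign, to values near 0, when the libraries were scaled on ribosomal protein genes. Over all tested genes 32.9% were higher and 30% lower at that threshold, and 4 and 4 of 9 genes are near that background. Groups without overlap were seen for the same 8 genes, against 34.8% of all tested genes higher and 31% lower without overlap. No member was up-regulated or down-regulated at both thresholds of the study (the same adjusted p together with a change of 1 or more on the log2 scale in either direction), which 12% and 0.503% of all tested genes were. That count was also 0 with DESeq2 and at an unadjusted p under 0.05 in edgeR, where 8 members passed without the fold threshold. The changes that passed were thus below 2-fold. On average 8 of the 9 genes reached 100 normalized counts or more, and NAGS had 99 counts over the 6 libraries. Among the 11064 tested genes at that level 28.7% were higher and 38.8% lower, 30% and 39.6% without overlap, and 5.44% and 0.163% up-regulated and down-regulated at both thresholds.

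Totals on genes were 18622267 to 18828495 counts per library, and reads without a unique place made up 2.81% to 2.92% of the listed reads. Markers of the embryonic kidney line were present, with 10 of 11 tested (6 higher and 4 lower, EYA1, VIM and CDH2 among the latter) and PAX8 at 2 counts in all, and their summed level was 21000 to 21557 normalized counts in untreated and 23367 to 24639 in VPA-treated libraries. Of 10 hepatocyte markers only CYP2E1 had more than 10 counts over the 6 libraries, and the summed level of the list was 31.4 to 44.5 normalized counts in untreated and 56.4 to 75.6 in VPA-treated libraries. Albumin, the defining hepatocyte marker, had 2 counts over all libraries. Of 8 proximal tubule markers 4 were tested and 2 were higher, LRP2 and GGT1, with the sum at 950 to 1093 and 1681 to 1699 normalized counts. Of 5 leukocyte markers 1 was tested and it did not pass. The part of these markers in the results was not tested. OTC, the gene of ornithine transcarbamylase, and GLUD2, a close copy of GLUD1, lie on chromosome X, whose genes are listed at 0, and were not analysed here. In bulk RNA fewer cells with a transcript and less of it per cell cannot be told apart.

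The promoter letters of ASS1 and ARG2, the 2 genes with the largest increases, and of GLUD1, a gene with lower counts, are shown to set members of both directions side by side. They are the 250 bases before the annotated start, from RefSeq on GRCh38.p14 and read 5′ to 3′ on the strand of the gene, and capitals mark the letters GGGCGG (a GC box), CCAAT or TGACGTCA (the cAMP response element) on either strand. The windows are chr9:130444457-130444706 (plus strand, the first of 2 annotated starts of ASS1), chr14:67619670-67619919 (plus strand, ARG2) and chr10:87094844-87095093 (minus strand, GLUD1).
ASS1: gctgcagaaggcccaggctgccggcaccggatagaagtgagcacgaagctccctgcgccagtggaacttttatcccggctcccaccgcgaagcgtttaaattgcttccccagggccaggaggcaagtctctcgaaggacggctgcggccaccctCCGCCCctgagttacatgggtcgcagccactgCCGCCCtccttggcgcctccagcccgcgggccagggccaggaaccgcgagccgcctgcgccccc
ARG2: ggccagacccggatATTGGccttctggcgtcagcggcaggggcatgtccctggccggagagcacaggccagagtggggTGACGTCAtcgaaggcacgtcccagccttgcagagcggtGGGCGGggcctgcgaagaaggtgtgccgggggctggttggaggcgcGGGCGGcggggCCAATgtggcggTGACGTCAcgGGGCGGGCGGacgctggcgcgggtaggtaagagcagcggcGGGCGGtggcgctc
GLUD1: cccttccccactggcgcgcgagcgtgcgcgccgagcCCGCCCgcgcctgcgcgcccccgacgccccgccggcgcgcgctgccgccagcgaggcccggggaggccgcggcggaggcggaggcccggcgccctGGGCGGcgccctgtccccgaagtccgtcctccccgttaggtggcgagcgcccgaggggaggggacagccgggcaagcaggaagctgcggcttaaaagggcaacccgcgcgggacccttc
The ASS1 window held GGGCGG at 2 places and neither of the other motifs. The ARG2 window held GGGCGG at 5 places, 2 of them overlapping, CCAAT at 2 and TGACGTCA at 2, which begin 172 and 64 bases before the start. The GLUD1 window held GGGCGG at 2 places. Of the 13 windows at annotated starts of the 9 genes, 10 held GGGCGG, 5 CCAAT, 1 (ARG2) TGACGTCA and 0 TATAAA. Of 35116 promoters of the same length, 42.6% held GGGCGG, 32% CCAAT, 1.65% TGACGTCA and 10.7% TATAAA. CpG dinucleotides numbered 21, 27 and 41 in the 3 windows, against a median of 11 over all promoters. The windows of the other members held 13 (NAGS) to 35 (SLC25A15), except those of CPS1, a higher member, with 3, 1 and 3. Which start was in use was not measured, and these matches are letters only.

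ASS1 (argininosuccinate synthetase), on chromosome 9 (130444707 to 130501274, plus strand), showed the largest change. Normalized counts (counts divided by the TMM-adjusted library size, times the mean size) were 763, 711 and 736 without treatment and 1391, 1319 and 1375 with VPA. Every VPA-treated library was far above every untreated one, and the means were 737 ± 26.1 and 1362 ± 37.5 (SD, n = 3 each). On the log2 scale the change was 0.89 ± 0.051 (SE, adjusted p = 1.98e-12, edgeR), a rise of 1.85-fold. Over the 6 libraries the log2 level of ASS1 was most like that of KIF21B, SLC30A3 and AGAP2 among genes at 100 normalized counts or more, with Pearson's r of 0.99997, 0.99964 and 0.9995. All genes share the libraries and the 2 groups, and no test was made of these values.

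ASL (argininosuccinate lyase), the next enzyme of the cycle, lies on chromosome 7 (66075819 to 66093576, plus strand). It had 410, 410 and 452 normalized counts in untreated and 523, 529 and 598 in VPA-treated libraries. The groups did not overlap, but they lay closer together than those of ASS1. The change came to 0.38 ± 0.069 on the log2 scale (SE, adjusted p = 6.79e-05, edgeR), a rise of 1.30-fold. GENCODE places a further protein-coding gene model over ASL on the same strand, which has no row in the tables.

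ARG2, the arginase of mitochondria, lies on chromosome 14 (67619920 to 67651708, plus strand). Its normalized counts were 553, 526 and 648 in untreated and 957, 1002 and 1014 in VPA-treated libraries. The untreated libraries spread more widely than the treated ones, with coefficients of variation of 11.1% and 3.0%, and the groups stood clearly apart. This was a log2 fold change of 0.78 ± 0.065 (SE, adjusted p = 9.25e-10, edgeR), a rise of 1.72-fold. VTI1B, a SNARE gene on the opposite strand that overlaps the end of ARG2, went the other way, from 2015 to 1632 normalized counts (log2 fold change -0.30). The authors name a strand-specific protocol for the RNA libraries, but the strand setting of the counting is not given in the sources used here. ARG1, the arginase of the liver cytosol, had 0 counts in every library, which allows up to 3 counts per library (counting error only), so that ARG2 was the one arginase detected.

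CPS1, on chromosome 2 (210477685 to 210679107, plus strand), had 766, 862 and 890 normalized counts in untreated and 996, 1008 and 1013 in VPA-treated libraries. The treated libraries were almost alike (8.86 SD around a mean of 1005) and the untreated ones lay below them. VPA-treated over untreated cells gave 0.26 ± 0.056 on the log2 scale (SE, adjusted p = 0.000393, edgeR), a rise of 1.20-fold and the smallest among the enzymes that passed. NAGS, which makes the activator of CPS1, lies on chromosome 17 (44004622 to 44009068, plus strand). It had 10.3, 16.7 and 16.8 normalized counts in untreated and 16.3, 15.4 and 23.0 in VPA-treated libraries. The groups overlapped. Its log2 fold change of 0.32 had a standard error of 0.29 and a 95% interval from -0.25 to 0.88 (adjusted p = 0.353, edgeR), which covers a decrease as well as an increase nearly as large as that of ASS1.

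**Figure D1:**
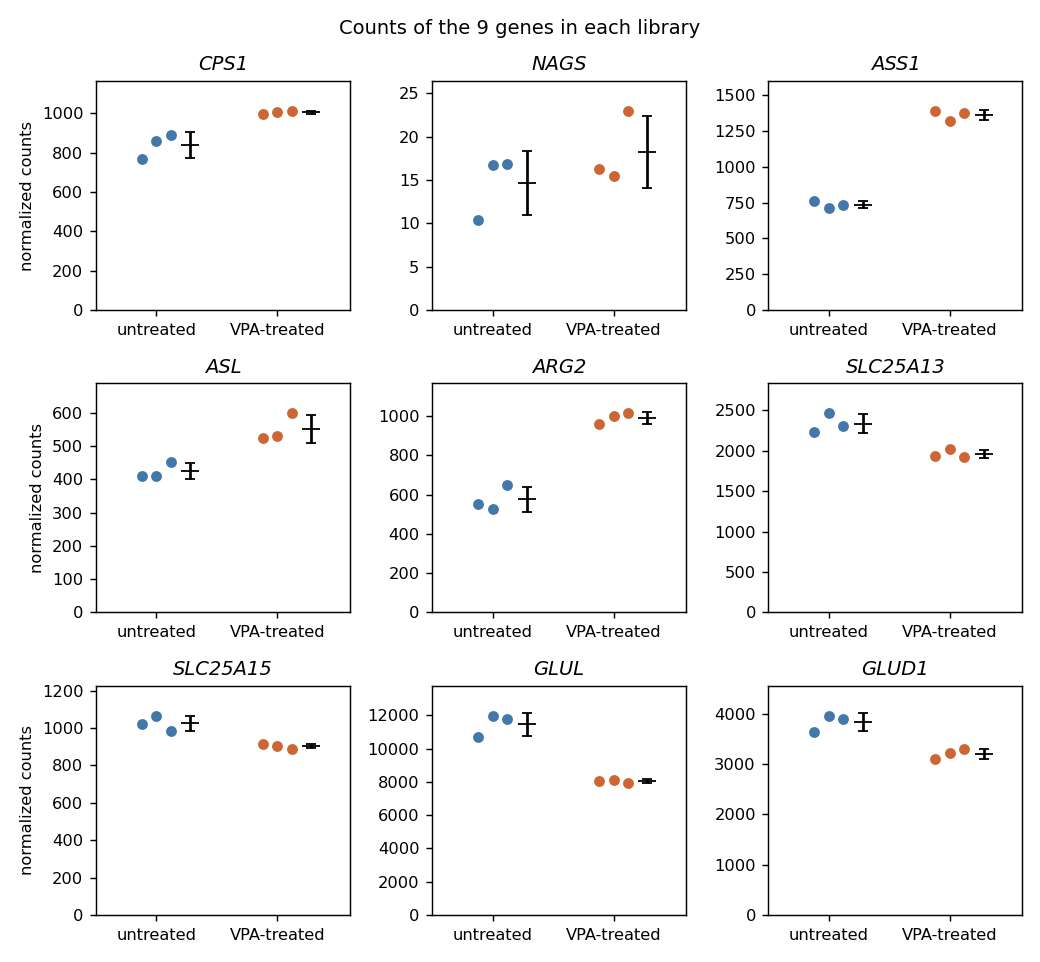
Normalized counts (y axis, from 0, a separate scale for each gene) of the 9 genes in the 3 untreated (blue) and 3 VPA-treated (orange) libraries, 1 point per library, with the mean and SD of each group in black. The groups overlap only for NAGS, ASS1 goes from 711 to 763 up to 1319 to 1391, and GLUL from 10697 to 11979 down to 7959 to 8137.

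The carriers were lower in VPA-treated cells by a small margin. SLC25A13 (citrin, the aspartate-glutamate carrier 2), on chromosome 7 (96120220 to 96322098, minus strand), had 2234, 2463 and 2312 normalized counts in untreated and 1931, 2016 and 1928 in VPA-treated libraries. Each treated library was below each untreated one. A log2 fold change of -0.25 ± 0.045 resulted (SE, adjusted p = 4.81e-05, edgeR), but 0.018 (adjusted p = 0.743) with ribosomal protein scaling. SLC25A12, which codes for the other aspartate-glutamate carrier, had 591 ± 25.4 and 618 ± 27.4 (SD, n = 3 each) normalized counts and a log2 fold change of 0.065 (adjusted p = 0.351, edgeR).

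SLC25A15, the ornithine-citrulline exchanger, lies on chromosome 13 (40789611 to 40812460, plus strand). It had 1024, 1066 and 987 normalized counts in untreated and 916, 907 and 891 in VPA-treated libraries. These groups lay close together without overlap. The log2 fold change of -0.18 had a standard error of 0.051 (adjusted p = 0.00372, edgeR), the smallest change of the 8 genes that passed, and it did not pass with upper quartile scaling (-0.12), library totals (-0.050) or ribosomal protein scaling (0.090).

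GLUL had by far the most counts. The gene lies on chromosome 1 (182378098 to 182391790, minus strand). It had 10697, 11979 and 11767 normalized counts in untreated and 8076, 8137 and 7959 in VPA-treated libraries. The treated libraries differed little among themselves (a coefficient of variation of 1.13%) and all lay below the untreated ones. The change came to -0.51 ± 0.044 on the log2 scale (SE, adjusted p = 1.94e-09, edgeR), so that the level fell by 29.8%. GLUL was lower under each of the 5 scalings tried, by 0.24 on the log2 scale at the least. GLUL is also known as a marker of astrocytes. Of 5 other astrocyte markers 4 were up-regulated (GFAP, AQP4, SLC1A2 and ALDH1L1, at most 87.0 normalized counts in any library) and SLC1A3 was lower. Over all tested genes 12% were up-regulated at both thresholds. AQP4, SLC1A2 and ALDH1L1 passed the filter on low counts only through the VPA-treated libraries, where they are high. The sum of the list was 1262 to 1568 normalized counts in untreated and 1128 to 1246 in VPA-treated libraries. The part of these markers in the change of GLUL was not tested.

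GLUD1, on chromosome 10 (87050202 to 87094843, minus strand), had 3634, 3961 and 3905 normalized counts in untreated and 3101, 3221 and 3294 in VPA-treated libraries. The groups did not overlap. This was a log2 fold change of -0.26 ± 0.043 (SE, adjusted p = 2.12e-05, edgeR) and 0.015 (adjusted p = 0.779) with ribosomal protein scaling. The GLUD1 pseudogenes GLUD1P2 and GLUD1P3 are in the tables with 20 and 223 counts over the 6 libraries, 0.0950% and 1.06% of the GLUD1 counts, and reads without a unique place were not counted. SHLD2, a DNA repair gene on the opposite strand that overlaps GLUD1, went from 850 to 710 normalized counts (log2 fold change -0.26, adjusted p = 0.00149, edgeR). Over all tested genes 30% were lower at an adjusted p under 0.05, and a link between SHLD2 and GLUD1 was not tested.

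The scaling of the libraries moved all genes together. The median of all 15298 genes (log2 scale) stood at 0.0058 with TMM, 0.14 with library totals and 0.28 under ribosomal protein scaling, and the share of higher genes among those past the adjusted p was 52.3%, 73.9% and 91.6%. Values relative to that median are therefore the same over the 5 scalings by arithmetic, which says nothing about how firm they are. ASS1 was at 0.88, ARG2 at 0.78, ASL at 0.37, NAGS at 0.31 and CPS1 at 0.25. SLC25A15 was at -0.19, SLC25A13 and GLUD1 at -0.26 and GLUL at -0.52. In the DESeq2 fit, which covered more genes, the relative values were 0.78 for ASS1, 0.16 for CPS1 and -0.36 for GLUD1. With ribosomal protein scaling ASS1 and ARG2 also reached the fold threshold, with log2 fold changes of 1.16 and 1.05.

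**Figure D2:**
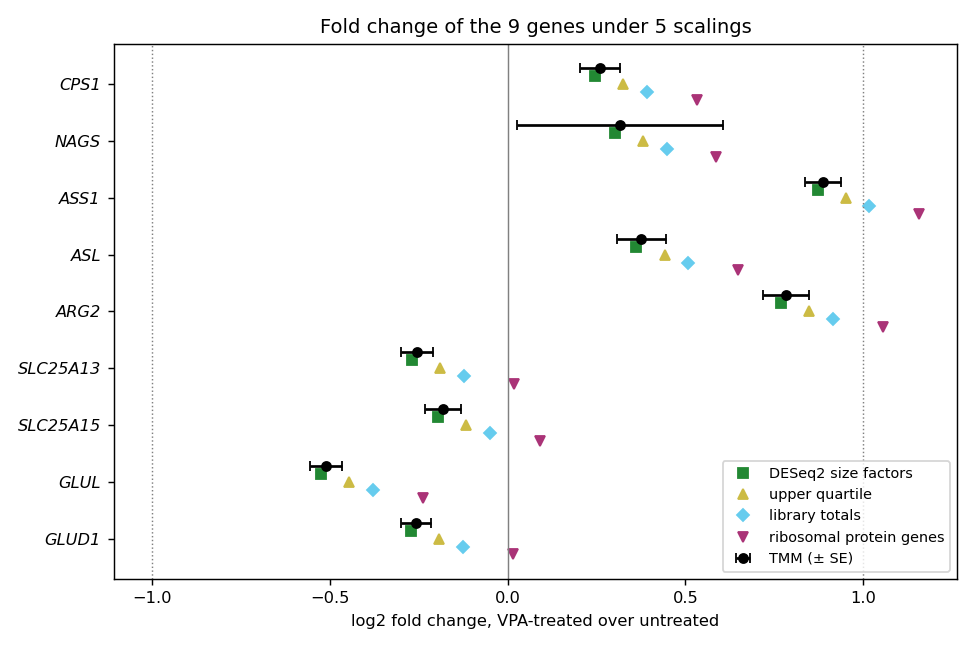
Log2 fold change of VPA-treated over untreated cells (x axis) for each of the 9 genes under 5 scalings, with the standard error for TMM and dotted lines at a size of 1. ASS1, ARG2, ASL, CPS1 and NAGS lie right of 0 and GLUL left of 0 under all 5, while SLC25A13, SLC25A15 and GLUD1 cross to 0.018, 0.090 and 0.015 with ribosomal protein scaling.

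Ratios of 2 genes within a library do not depend on its scaling, and 3 are given with exact permutation tests (two-sided, adjusted over the 4 ratios computed), for which 3 libraries against 3 cannot give a p below 0.1. The log2 ratio of ASS1 to ASL, the genes of successive enzymes, was 0.90, 0.79 and 0.70 in untreated and 1.41, 1.32 and 1.20 in VPA-treated libraries. Its means were 0.80 ± 0.097 and 1.31 ± 0.11 (SD, n = 3 each), without overlap (difference 0.51, exact permutation p = 0.1, adjusted 0.133). ARG2 was compared with OAT, the aminotransferase that uses the ornithine made by arginase. Their log2 ratio was -2.70 ± 0.16 and -1.93 ± 0.026 (SD, n = 3 each; difference 0.76, exact permutation p = 0.1, adjusted 0.133), while OAT had 3720 ± 138 and 3786 ± 107 normalized counts. The ratio of the carriers, SLC25A15 to SLC25A13, overlapped between the groups and differed by 0.073 (exact permutation p = 0.2, adjusted 0.2).

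**Figure D3:**
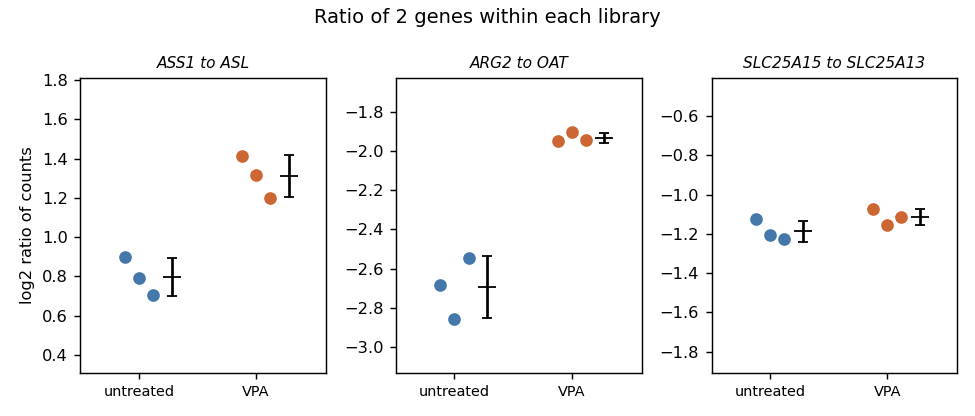
Log2 ratio of the counts of 2 genes (y axis, a span of the same width in each panel) in the 3 untreated (blue) and 3 VPA-treated (orange) libraries, with mean and SD in black. ASS1 to ASL is higher by 0.51 and ARG2 to OAT by 0.76 in VPA-treated libraries without overlap, and SLC25A15 to SLC25A13 overlaps.

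Levels can be compared between genes only per length. With the length of the canonical GENCODE transcript, GLUL had the highest level in untreated cells, 1520 ± 91.0 normalized counts per kb (SD, n = 3), followed by GLUD1 at 1162 ± 53.0, SLC25A13 at 744 ± 37.0 and ASS1 at 481 ± 17.0. ARG2 at 301 ± 33.5 and SLC25A15 at 268 ± 10.3 overlapped, then came ASL at 198 ± 11.4 and CPS1 at 146 ± 11.3. NAGS was last at 6.92 ± 1.75, 21.1 times below CPS1. In VPA-treated cells ASS1 at 889 ± 24.5 per kb lay above SLC25A13 at 624 ± 15.9, and ASL at 257 ± 19.4 above SLC25A15 at 237 ± 3.39, with no overlap between any neighbours in the order. When all annotated exons were used as the length, GLUL stayed first and NAGS last, but GLUD1 came after SLC25A13 in untreated cells at 268 ± 12.2 per kb, and its range overlapped that of ARG2. Neither of the changes of order named for VPA-treated cells held with that length. SLC25A13 at 528 ± 13.5 stayed above ASS1 at 451 ± 12.4, and SLC25A15 at 216 ± 3.10 above ASL at 91.2 ± 6.90 per kb. Others appeared with it, as ASS1 and ARG2 (434 ± 13.0) lay above GLUD1 (224 ± 6.84) in VPA-treated cells. In untreated cells their means, 244 ± 8.65 and 252 ± 28.1 per kb, were below that of GLUD1.

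**Figure D4:**
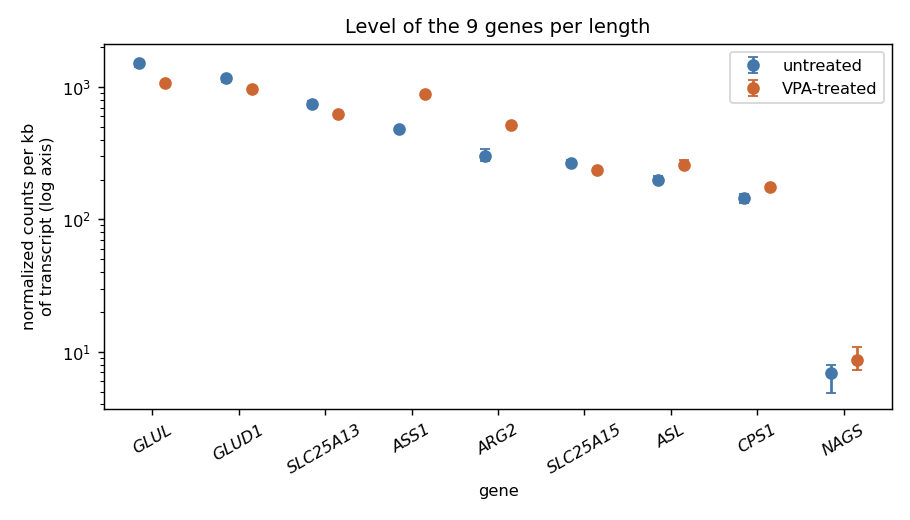
Normalized counts per kb of the canonical transcript (y axis, log scale) for the 9 genes in order of their untreated level, as the mean with the lowest and highest of 3 libraries, untreated in blue and VPA-treated in orange. GLUL is highest in both groups at 1520 and 1067 per kb, NAGS lowest at 6.92 and 8.61, and ASS1 goes from 481 to 889.

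Genes around these members were counted in 6 lists. For comparison with each list, 32.9% of all tested genes were higher and 30% lower at an adjusted p under 0.05. Their median log2 fold change was 0.0058. Of 14 other urea cycle, ornithine and proline genes 11 were tested, 1 was higher and 3 were lower, with a median log2 fold change of -0.026. The higher gene was PRODH (proline dehydrogenase), from 16.7 ± 2.83 to 41.2 ± 10 (SD, n = 3 each), which is 1.30 on the log2 scale (adjusted p = 7.92e-05, edgeR). The lower ones were SIRT5, a mitochondrial deacylase known to act on CPS1 (-0.28, from 360 to 296 normalized counts), PYCR3 (-0.25) and ALDH18A1 (-0.19), both of proline synthesis. With ribosomal protein scaling 7 of these genes were higher and 0 lower.

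Of 18 genes for glutaminases, transaminases and enzymes that use glutamine 17 were tested. At an adjusted p under 0.05, 5 were higher and 9 lower, with a median of -0.18, but scaling on ribosomal proteins turned this to 8 higher and 2 lower. GFPT2, which takes glutamine into hexosamine synthesis, rose to 937 ± 46.4 from 475 ± 18.3 normalized counts (SD, n = 3 each), which is 0.98 on the log2 scale (adjusted p = 4.47e-12, edgeR). GLS2, the liver-type glutaminase, was at 64.1, 79.5 and 77.6 in untreated and 148, 111 and 125 normalized counts in VPA-treated libraries, a log2 fold change of 0.80 (adjusted p = 2.70e-05, edgeR). The groups did not overlap. CTPS1, which uses glutamine to make CTP, was lower by 0.58 on the log2 scale, from 6930 ± 201 to 4645 ± 71.9 normalized counts (SD, n = 3 each). ASNS (asparagine synthetase) was lower with few counts, from 66 ± 18.6 to 39.9 ± 8.04 (log2 fold change -0.72, adjusted p = 0.00365, edgeR). The other 3 higher genes, GOT1, BCAT1 and GFPT1, changed by 0.21, 0.16 and 0.31 on the log2 scale.

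Among 21 genes for enzymes or enzyme systems that release ammonia 17 were tested, and 8 were higher and 2 lower, or 13 and 0 with ribosomal protein scaling. The median log2 fold change was 0.20, the value of HAL, which did not pass (adjusted p = 0.492, edgeR). CDA (cytidine deaminase) went from 16.3 ± 3.25 to 82.5 ± 1.78 normalized counts (SD, n = 3 each), which is 2.33 on the log2 scale (adjusted p = 5.06e-10, edgeR). AMPD3, an AMP deaminase, rose by 1.41 on the log2 scale and SDSL, a serine dehydratase, by 0.64, both below 70 normalized counts. The 2 lower genes were DLD (-0.10) and GNPDA1 (-0.20). GLDC, a part of the glycine cleavage system, had the most counts of those higher and rose from 1577 ± 116 to 2354 ± 73.7 (log2 fold change 0.58, adjusted p = 2.07e-09, edgeR). AMT and GCSH of the same system did not pass (adjusted p = 0.664 and 0.606, edgeR).

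Of 18 transporter genes for ammonia, glutamine and glutamate 14 were tested, 5 were higher and 7 lower, with a median of -0.10, and with ribosomal protein scaling 9 were higher and 1 lower. All 5 that were higher were also up-regulated at both thresholds, but SLC38A4, RHBG and SLC7A7 passed the filter on low counts only through the VPA-treated libraries, where they are high. With at least 10 counts required in every library 2 were higher. SLC38A4, an amino acid carrier, was at 2.07, 2.09 and 4.20 normalized counts in untreated and 37.3, 46.2 and 52.6 in VPA-treated libraries (log2 fold change 3.97, adjusted p = 1.62e-09, edgeR). RHBG, an ammonia channel, had 44 counts over the 6 libraries, most of them after treatment (log2 fold change 2.22, adjusted p = 0.00102, edgeR), and SLC7A7 had 93 (log2 fold change 1.23). SLC7A8, an exchanger of neutral amino acids, rose to 913 ± 9.01 from 377 ± 7.44 normalized counts (SD, n = 3 each; log2 fold change 1.28, adjusted p = 3.40e-14, edgeR), and SLC38A3 by 1.18 on the log2 scale. Among the lower genes, SLC1A5, a glutamine carrier, went from 7898 to 5936 normalized counts (log2 fold change -0.41), SLC25A22, a mitochondrial glutamate carrier, from 1026 to 759 (-0.44), and SLC7A5 and SLC3A2, the subunits of an amino acid exchanger, from 7568 to 6458 (-0.23) and from 3468 to 2776 (-0.32). SLC38A2, SLC38A7 and SLC7A6 were lower by 0.12 to 0.24 on the log2 scale. Summed over the list, the level was 31983 to 33458 normalized counts in untreated and 28112 to 29290 in VPA-treated libraries.

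Arginine and ornithine also feed nitric oxide, creatine and polyamines. Of 17 such genes 15 were tested, 4 were higher and 6 lower, with a median of -0.068, and with ribosomal protein scaling 9 and 2. NOS2, the inducible nitric oxide synthase, rose to 332 ± 11.9 from 141 ± 7.28 normalized counts (SD, n = 3 each; log2 fold change 1.23, adjusted p = 4.78e-11, edgeR). DDAH1, which clears inhibitors of that enzyme family, rose by 0.77 on the log2 scale, from 968 to 1656 normalized counts, GAMT of creatine synthesis by 0.42 and AZIN2 by 0.57. ODC1, which turns ornithine into putrescine, was lower, from 9547 ± 676 to 6330 ± 134 (log2 fold change -0.59, adjusted p = 4.17e-10, edgeR), and AGMAT was lower by 0.67 on the log2 scale with 239 counts in all. The other lower genes were SRM (log2 fold change -0.56), OAZ1 (-0.28), SLC7A1 (-0.27) and AZIN1 (-0.15).

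Of 9 transcription factors with a role in liver metabolism 6 were tested, and 2 were higher and 1 lower, with a median of 0.11, and 4 and 1 with ribosomal protein scaling. PPARGC1A rose to 165 ± 5.63 from 71.6 ± 6.40 normalized counts (SD, n = 3 each; log2 fold change 1.20, adjusted p = 8.56e-09, edgeR) and PPARA by 0.64 on the log2 scale, while NR3C1, the glucocorticoid receptor, was lower (log2 fold change -0.40). HNF4A and FOXA2 did not pass the filter on low counts.

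**Figure D5:**
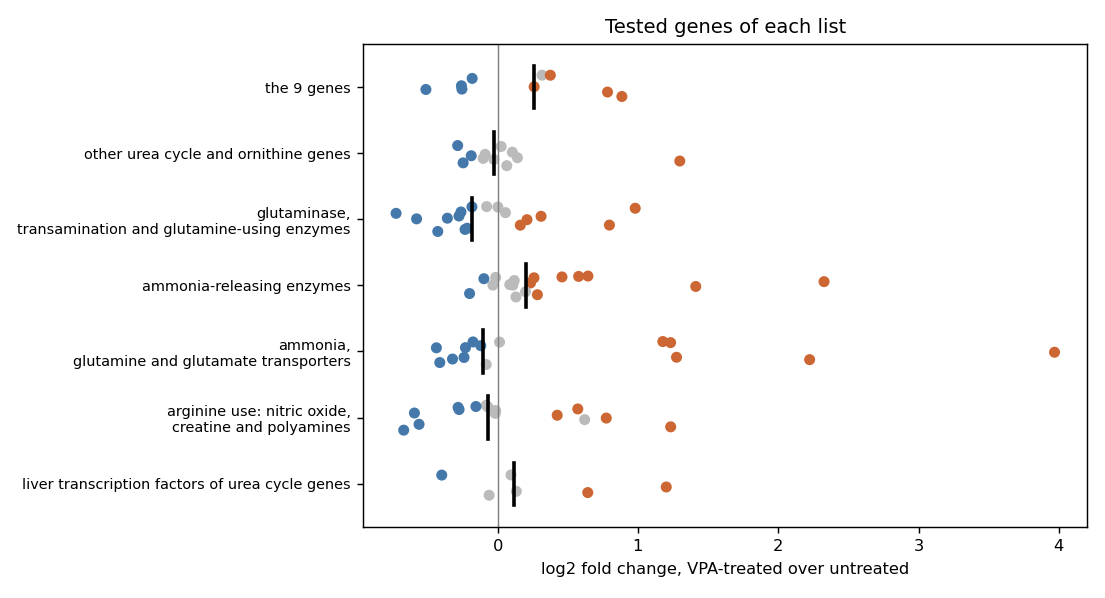
Log2 fold change of VPA-treated over untreated cells with TMM scaling (x axis) for the tested genes of the 9 members and of 6 lists (rows, points spread vertically for legibility), orange where higher and blue where lower at an adjusted p under 0.05, grey where not past it, with the median of each list as a black bar. The members span -0.51 to 0.89, and the largest value is SLC38A4 at 3.97. With ribosomal protein scaling the points lie further right, and SLC25A13, SLC25A15 and GLUD1 among the members come to lie right of 0.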

How the data were processed

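Counts per gene were analysed for 6 RNA-seq libraries of HEK293T cells, 3 untreated and 3 VPA-treated, grouped by the sample titles. Read cleaning was by SOAPnuke and alignment to hg38 by STAR, and the authors deposited raw counts per gene from HTSeq, whole numbers without normalization. The submitters' processing notes name STAR 2.7.10b and HTSeq 2.0.1. The gene annotation and strand setting are not given in the sources used here. The 5 summary rows of each table (6.80% to 7.69% of listed reads off any gene, 1.97% to 2.10% ambiguous) were left out.

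The test was the quasi-likelihood test of edgeR 4.0.16 under R 4.3.3 (TMM, filterByExpr with a count minimum of 10, robust fit, condition as the term, prior count 0.125, Benjamini-Hochberg adjustment over all genes tested), in place of the authors' DESeq2, and with DESeq2 1.42.0 as an alternative. Standard errors were taken as the fold change on the log2 scale over the root of F, and the 95% interval spans 1.96 of it on each side. The biological coefficient of variation was 3.83%. Replicates differed by more than sampling noise (chi-square per gene 1.62 to 4.80) and each counted as 1. Within-library ratios had 0.5 counts added. The members, lists and ratios were chosen with earlier results of these data known. All members are named, and of each other list up to 4 genes past the adjusted p with the largest change, along with GLS2, ARG1, OAT, SLC25A12 and SIRT5. The results of 1 ratio and of a few listed genes are not reported here. Other genes named from the lists were chosen after their values were seen. RefSeq (GRCh38.p14) gave coordinates and promoters, with all 9 members found by symbol, and lengths and overlaps from GENCODE 44.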

Additional observations from a re-analysis of the deposited data

How the results depend on the processing

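The 4 higher members stayed higher and past the adjusted p under every alternative tried: 4 other scalings, DESeq2, 2 other filters on low counts, a prior count of 2, a fit with the replicate block, and leaving out any library. With ribosomal protein scaling 1 member was lower in place of 4, as SLC25A13, SLC25A15 and GLUD1 turned to 0.018, 0.090 and 0.015 (adjusted p = 0.743, 0.128 and 0.779 in edgeR), and 2 members were up-regulated at both thresholds. With library totals 1 was, ASS1. These shifts follow from the scaling, which moved the median of all genes by the amounts given above. In all, 130 of 135 recomputed fold changes kept their direction and side of the threshold. SLC25A15 was weaker with upper quartile scaling and library totals (adjusted p = 0.0534 and 0.410 in edgeR). With a library left out, 4 members were higher and 4 lower each time, and the log2 fold change was 0.85 to 0.91 for ASS1, 0.72 to 0.87 for ARG2, 0.31 to 0.42 for ASL, 0.19 to 0.30 for CPS1, 0.11 to 0.42 for NAGS, -0.57 to -0.49 for GLUL, -0.30 to -0.24 for GLUD1, -0.29 to -0.22 for SLC25A13 and -0.21 to -0.16 for SLC25A15. The ratios kept their sign, ASS1 to ASL at 0.46 to 0.57 and ARG2 to OAT at 0.68 to 0.84.

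The counts in the 6 lists, recomputed after the data were seen, moved most with scaling. With library totals the lower genes numbered 0 in place of 3 among the other urea cycle genes (4 higher in place of 1), 0 in place of 2 among ammonia-releasing enzymes and 3 in place of 7 among transporters. The lower ornithine and proline genes were 5 with DESeq2 size factors, without a filter, with the replicate block and without VPA-treated replicate 1, and 2 higher with upper quartile scaling. The lower ammonia-releasing enzymes were 1 with upper quartile scaling, with at least 10 counts in every library, and without 5 of the 6 libraries in turn. The transporters had 2 higher in place of 5 with at least 10 counts in every library, since fewer genes were tested there.

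With the replicate number as a block 4 members were higher and 4 lower, as without it. Same-numbered libraries had deviations from their group means with r = 0.14, 0.021 and 0.080, against -0.11 to 0.031 for differently numbered ones. Over all tested genes the block gave 5357 higher and 5100 lower, against 5037 and 4591 without it. Whether libraries of the same number belong together was not tested. With 99 counts the change of NAGS is known only to within the interval given above.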
